A study of Homo sapiens with 8 samples.

Results

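Described here are 10 genes of the transforming growth factor beta (TGF-beta) superfamily in A549 cells: the ligand genes GDF15, INHBA, INHBB, BMP2, BMP4, TGFB1, TGFB2 and TGFB3, the secreted antagonist gene FST and the pseudoreceptor gene BAMBI. They are 10 of the 19158 genes listed in every library and were taken by gene symbol. They were chosen by their FPKM in these libraries, with the difference between dexamethasone and untreated cells in view, so their values in that contrast are a description and carry no test. A549 is an established epithelial line from a human lung adenocarcinoma, labelled WT, and all results come from this line alone. In the untreated group (labelled NT) 4 wells received no treatment, and in the treated group 4 wells received dexamethasone, a synthetic glucocorticoid, at 1 µM for 48 h. Both groups were grown in DMEM with serum, carry batch label 1 and have replicates numbered 1, 3, 4 and 5. Nothing in the labels says that the wells came from separate cultures, so p-values measure only the spread between wells.

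Ligands of this superfamily are made as precursors, cleaved by proprotein convertases and secreted as dimers. They bring together type I and type II serine/threonine kinase receptors, which phosphorylate SMAD2 and SMAD3 for TGF-beta and activin, or SMAD1, SMAD5 and SMAD9 for the bone morphogenetic proteins (BMPs). GDF15 is a distant member, induced by cellular stress, that signals through GFRAL and RET in the hindbrain and limits food intake. In the lung, TGF-beta is known for driving matrix production, and glucocorticoids are given against inflammation.

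Values were read as FPKM, a level corrected for transcript length and for the depth of the library, and are printed as deposited. No label or header names the unit. Each library held 14798 to 15182 genes above 0. The steps between low values gave a rough estimate of 25030000 to 28340000 fragments per library. The fit was loose, with 33.3% to 42.5% of low values within 0.1 of a whole fragment. Mitochondrial transcripts took 1.74% to 6.04% of summed FPKM in untreated and 2.55% to 9.44% in dexamethasone libraries. Spearman correlations across genes were 0.972 to 0.989 within the untreated group, 0.98 to 0.987 within the dexamethasone group and 0.94 to 0.97 between groups. Untreated replicate 5 and dexamethasone replicate 5 stood apart from the other libraries, with scaling factors of 0.824 and 0.928 against 1.02 to 1.09. Fold changes and tests come from log2(FPKM + 1) after scaling between libraries, which understates the change of genes at low values. The glucocorticoid-response gene FKBP5 was 3.28 to 7.3 FPKM in the untreated and 87.3 to 166 FPKM in the dexamethasone libraries. Keratin genes marked the cells as epithelial, with KRT8 at 957 to 2190 FPKM over all libraries, while EPCAM was only 0.14 to 0.765 FPKM. Epithelial markers moved both ways. CDH1 was 4.9 to 8.52 FPKM in untreated and 16.7 to 19.7 FPKM in dexamethasone libraries (limma adjusted p = 8.15e-05). KRT19 was 131 to 200 FPKM in untreated and 44 to 64.2 FPKM in dexamethasone libraries (limma adjusted p = 0.0014). The leukocyte markers PTPRC and CD3E and the fibroblast markers COL1A2 and POSTN were listed at 0 in all 8 libraries. Other leukocyte and fibroblast markers were present and lower after dexamethasone. CD68 was 3.65 to 4.88 FPKM in untreated and 1.81 to 2.24 FPKM in dexamethasone libraries. CD14 was 2.01 to 3.14 and 1.19 to 1.56 FPKM, and THY1 1.57 to 1.93 and 0.359 to 0.411 FPKM.

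In the comparison across all genes, 12152 genes passed the filter of at least 0.5 FPKM in at least 4 libraries. Of these, 26.7% were called by limma at a Benjamini-Hochberg adjusted p under 0.05, with 12.5% higher and 14.3% lower after dexamethasone. The median log2 fold change of all tested genes was 0.01. FST, BMP6, TGFBR3L, COL1A1 and THY1 passed the filter through the untreated group alone, and SNAI2 through the dexamethasone group alone. Every value of their other group was below 0.5 FPKM, so they entered the test by way of the group where they were high. With both libraries numbered 5 left out limma called 5512 genes, against 3250 with them. Of the 10 superfamily genes 7 passed the filter and 5 of them were called, all lower: GDF15, TGFB1, INHBB, FST and BAMBI. Since the contrast was in view when the genes were chosen, nothing is read from that count. The same holds for calls of these genes under other settings, given below only to show how they depend on the processing. In 31.6% of all tested genes the 4 values of each group as deposited did not overlap. Among the 10 genes this was so for GDF15, TGFB1, FST and BAMBI. INHBB did not overlap only after scaling, for which no share over all genes was computed.

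The stretches of 250 bases upstream of the annotated start sites of those 4 genes are shown because their values were lower together. They come from the RefSeq promoter table on GRCh38.p14, in which 9 of the 10 genes were found and BMP2 had no entry. Each runs 5′ to 3′ on the gene's own strand and ends at the base before the start site. Capitals mark CAGAC, the core motif of SMAD binding, or its complement GTCTG. The windows are chr19:18385908-18386157 on the plus strand for GDF15, chr19:41353923-41354172 on the minus strand for TGFB1, chr5:53480379-53480628 on the plus strand for FST and chr10:28677271-28677520 on the plus strand for BAMBI.
GDF15: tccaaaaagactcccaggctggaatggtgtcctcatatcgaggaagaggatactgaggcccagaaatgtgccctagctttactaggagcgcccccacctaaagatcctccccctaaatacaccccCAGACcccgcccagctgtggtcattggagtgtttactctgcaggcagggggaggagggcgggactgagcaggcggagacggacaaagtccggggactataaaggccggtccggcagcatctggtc
TGFB1: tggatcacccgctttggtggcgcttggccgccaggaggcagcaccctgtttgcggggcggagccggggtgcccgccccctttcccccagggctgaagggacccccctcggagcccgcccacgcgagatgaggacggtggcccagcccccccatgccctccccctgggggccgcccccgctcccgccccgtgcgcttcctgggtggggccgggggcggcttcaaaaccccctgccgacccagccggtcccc
FST: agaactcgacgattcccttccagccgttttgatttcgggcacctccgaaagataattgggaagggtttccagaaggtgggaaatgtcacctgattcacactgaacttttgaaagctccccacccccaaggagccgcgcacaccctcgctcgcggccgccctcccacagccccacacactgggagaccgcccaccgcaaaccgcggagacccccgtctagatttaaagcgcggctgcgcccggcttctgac
BAMBI: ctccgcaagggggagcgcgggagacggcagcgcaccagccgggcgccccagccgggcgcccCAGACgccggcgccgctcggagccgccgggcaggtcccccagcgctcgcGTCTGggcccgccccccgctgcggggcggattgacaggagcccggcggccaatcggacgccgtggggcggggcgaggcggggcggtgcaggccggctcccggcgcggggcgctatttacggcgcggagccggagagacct

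GDF15 had 1 CAGAC match, at positions -125 to -121 counted from the start site, and BAMBI had 2, which begin at positions -189 and -140. TGFB1 and FST had none. CAGAC on either strand was present in 38% of all 35116 promoter windows of this length. The glucocorticoid-response hexamer AGAACA, searched on both strands and held by 12.4% of all windows, was in none of these 4 windows. The other motifs searched on both strands, GTCTAGAC (0.182% of windows), the paired form of the hexamer (AGAACA, any 3 bases, TGTTCT; 0.00285%) and the AP-1 motif TGAGTCA or TGACTCA (4.2%), were also in none of them. Among the other windows of the 10 genes, AGAACA was found in 1 of 2 windows of TGFB3, at position -165. CAGAC was also in windows of TGFB2 (from -243 and -53), TGFB3 (from -245 and -133) and BMP4 (from -181 and, in another window, -46). TGFB2 and BMP4 were not called in the main fit and TGFB3 was not tested, and nothing is read from this. The windows of INHBA and INHBB held no CAGAC. The promoter of BAMBI was 81.2% GC, that of TGFB1 76.8%, that of FST 60% and that of GDF15 58.4%, beside a median of 58% over all windows. These matches describe letters in a window and are not binding sites.

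GDF15, the stress-induced ligand, was the most abundant of the 10 genes in untreated cells and the one with the largest difference in FPKM. The gene lies on chromosome 19 at 18374731 to 18389176, plus strand, in the GRCh38 coordinates given with the values. Its level was 93.8, 90.7, 103 and 121 FPKM in untreated replicates 1, 3, 4 and 5. In dexamethasone replicates 1, 3, 4 and 5 it was 12, 17.3, 17.2 and 19.9 FPKM. Every dexamethasone library lay far below every untreated library, and the library numbered 5 was the highest in both groups. The means were 102 ± 13.5 and 16.6 ± 3.29 FPKM (SD, n = 4 per group), 6.14-fold lower with dexamethasone, and the log2 fold change was -2.56 (SE 0.22). Ranked by mean FPKM among 19158 genes, GDF15 was number 523 in untreated cells and number 3591 after dexamethasone. The microRNA gene MIR3189 lies within GDF15 on the same strand. The known receptor of GDF15, GFRAL, was listed at 0 in all 8 libraries, and its co-receptor RET was 0.136 to 0.339 FPKM in untreated and 0.0519 to 0.211 FPKM in dexamethasone libraries.

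TGFB1, which encodes the most widely expressed TGF-beta isoform, was the second ligand in untreated cells. Its coordinates are chromosome 19, 41262565 to 41353911, minus strand. TGFB1 was 70.5, 70.5, 68 and 87 FPKM in untreated replicates 1, 3, 4 and 5, and 27.4, 30.4, 29.3 and 36 FPKM in the dexamethasone replicates of the same numbers. The groups did not overlap, and the library numbered 5 was again the highest in each. The means were 74 ± 8.74 and 30.8 ± 3.72 FPKM (SD, n = 4 per group), 2.4-fold lower with dexamethasone, and the log2 fold change was -1.24 (SE 0.2). The span given for TGFB1 is longer than that of GENCODE v44 (41301587 to 41353922). The GENCODE span crosses CCDC97, HNRNPUL1 and TMEM91 on the opposite strand and a gene without a symbol on the same strand. The rest of the longer span was not searched for other genes. How the counting used strand is not given in the sources used here, so fragments of those genes cannot be told apart from TGFB1 where they overlap.

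TGFB2 and TGFB3 encode the other TGF-beta isoforms, and in neither did the groups stand apart as they did for TGFB1. TGFB2 (chromosome 1, 218346235 to 218444619, plus strand) was 10.4, 11.8, 10.9 and 5.06 FPKM in untreated and 8.92, 8.33, 8.63 and 6.87 FPKM in dexamethasone replicates 1, 3, 4 and 5. Untreated replicate 5 was the lowest of all 8 libraries, and the other 3 untreated libraries lay above every dexamethasone library. The means were 9.54 ± 3.04 and 8.19 ± 0.91 FPKM (SD, n = 4 per group), and the log2 fold change was -0.14 (SE 0.17). Without untreated replicate 5 it was -0.31, and it was -0.45 with the trend on GC content removed. TGFB2 was called in 4 of 17 other settings, these 2 among them. TGFB3 (chromosome 14, 75958099 to 75982991, minus strand) was low in every library, at 0.177, 0.222, 0.394 and 0.213 FPKM untreated and 0.237, 0.156, 0.544 and 0.286 FPKM with dexamethasone. Its groups overlapped almost wholly, and it did not pass the filter.

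In the values as deposited, the makeup of TGF-beta transcripts therefore differed between groups. TGFB1 was 88.1% ± 4.17 of the summed FPKM of the 3 isoforms in untreated and 78.2% ± 3.75 in dexamethasone libraries (SD, n = 4 per group). TGFB2 was 12.8%, 14.3%, 13.8% and 5.48% of that sum in untreated and 24.4%, 21.4%, 22.4% and 15.9% in dexamethasone replicates 1, 3, 4 and 5. Every dexamethasone share of TGFB2 was above every untreated share, and the library numbered 5 had the lowest share in each group. TGFB3 made up 0.304% ± 0.13 and 0.781% ± 0.438 (SD, n = 4 per group). These shares carry no correction for GC content, which was 60.8% in TGFB1 and 40.9% in TGFB2 transcripts. With the trend on GC content removed, the log2 fold changes of TGFB1 and TGFB2 lay nearer each other. They were then -1.02 and -0.45, against -1.24 and -0.14 in the main fit, so the size of the shift depends on that setting.

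INHBB encodes the activin beta B subunit, whose dimer is activin B, and it was the third ligand in untreated cells. The gene is at chromosome 2, 120346143 to 120351808, plus strand. INHBB was 45, 47.8, 45.4 and 30 FPKM in untreated and 27.8, 31.8, 31.9 and 24.6 FPKM in dexamethasone replicates 1, 3, 4 and 5. Untreated replicate 5 fell within the range of the dexamethasone libraries as deposited, but after scaling it was 36.5, above the highest dexamethasone value of 31.3. The means were 42.1 ± 8.12 and 29 ± 3.52 FPKM (SD, n = 4 per group), and the log2 fold change was -0.51 (SE 0.12). With the trend on GC content removed it was -0.34, and the call was lost.

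INHBA encodes the activin beta A subunit, which forms activin A. It lies at chromosome 7, 41667168 to 41705834, minus strand. INHBA was listed at 0 in untreated replicates 1 and 5 and in all 4 dexamethasone libraries, and at 0.0131 and 0.00623 FPKM in untreated replicates 3 and 4. With its longest transcript of 6046 bases these values correspond to about 2 and 1 fragments, so INHBA was at the floor of detection in both groups and no fold is given. Of these activin beta subunits only beta B was thus above the floor. INHA, the alpha subunit that turns activin into inhibin, was below the filter at 0.0682 ± 0.0364 and 0.602 ± 0.231 FPKM (SD, n = 4 per group).

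The BMP ligands were low. BMP4 (chromosome 14, 53949736 to 53958761, minus strand) was 6.8, 8.42, 3.89 and 8.05 FPKM in untreated and 3.1, 5.37, 5.65 and 4.32 FPKM in dexamethasone replicates 1, 3, 4 and 5. Untreated replicates 1, 3 and 5 were above all dexamethasone libraries, and untreated replicate 4 lay among them. The means were 6.79 ± 2.06 and 4.61 ± 1.16 FPKM (SD, n = 4 per group), and the log2 fold change was -0.46 (SE 0.26). It was -0.7 without untreated replicate 4, the only one of 17 settings that called it, and -0.29 without untreated replicate 5. BMP2 (chromosome 20, 6767664 to 6780280, plus strand) was 0.0676, 0.193, 0.183 and 0.0787 FPKM in untreated and 0.11, 0.13, 0.152 and 0.0924 FPKM in dexamethasone libraries. The dexamethasone values lay inside the untreated range, and BMP2 did not pass the filter.

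FST encodes follistatin, which binds activins and keeps them from their receptors. It is at chromosome 5, 53480409 to 53487134, plus strand. FST was 1.14, 0.841, 1.26 and 0.654 FPKM in untreated replicates 1, 3, 4 and 5. In dexamethasone replicate 1 it was listed at 0, and in replicates 3, 4 and 5 it was 0.0481, 0.0293 and 0.0497 FPKM. All 4 untreated libraries were far above the highest dexamethasone library. The means were 0.976 ± 0.279 and 0.0318 ± 0.0231 FPKM (SD, n = 4 per group). The log2 fold change was -0.92 (SE 0.09) with the pseudocount of 1 and -3 with a pseudocount of 0.1, so its size depends on that choice. On the longest transcript of 2538 bases the dexamethasone values correspond to about 0 to 3.6 fragments per library. The untreated values correspond to about 41.7 to 81.1, and both rest on the rough estimate of depth.

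BAMBI encodes a transmembrane protein that resembles a type I receptor but lacks its kinase, and that dampens TGF-beta, activin and BMP signals. Its position is chromosome 10, 28677342 to 28682939, plus strand. BAMBI was 14.2, 14.6, 13.7 and 12.2 FPKM in untreated and 3.34, 4.96, 3.55 and 4.32 FPKM in dexamethasone replicates 1, 3, 4 and 5. The untreated libraries lay close together and well above all dexamethasone libraries. The means were 13.7 ± 1.06 and 4.04 ± 0.743 FPKM (SD, n = 4 per group), 3.38-fold lower with dexamethasone, and the log2 fold change was -1.55 (SE 0.14).

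**Figure D1:**
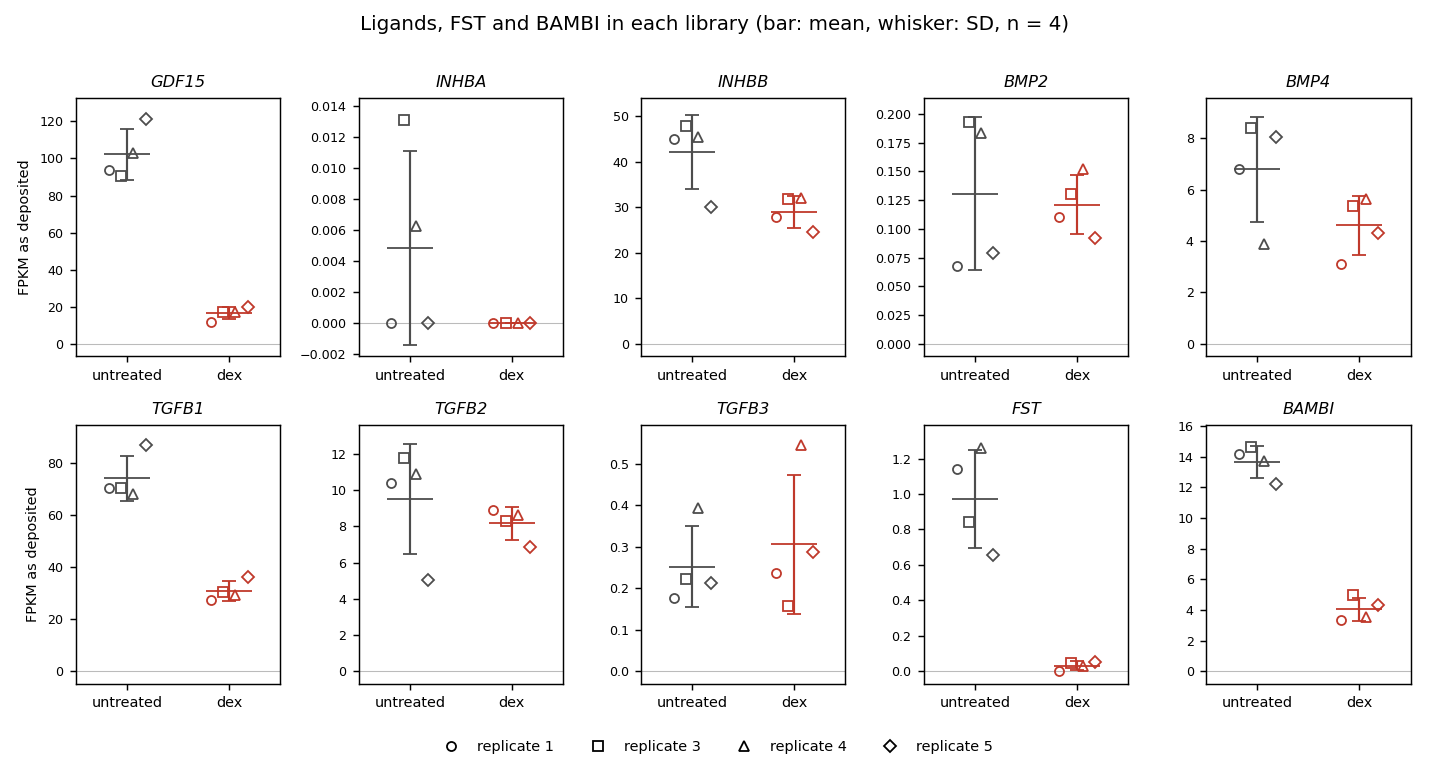
FPKM of GDF15, the activin, BMP and TGF-beta ligand genes, FST and BAMBI in each of the 8 libraries, with 1 panel per gene and its own scale. Points are libraries shaped by replicate number, bars are means and whiskers the SD (n = 4), and for GDF15 the untreated libraries lie at 90.7 to 121 FPKM and the dexamethasone libraries at 12 to 19.9 FPKM.

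If the values are FPKM, as read here, they are per length, and levels of different genes can be ordered. In untreated cells the order from the highest mean was GDF15, TGFB1, INHBB, BAMBI, TGFB2, BMP4, FST, TGFB3, BMP2 and INHBA. The values of TGFB2 and BMP4 overlapped, as did those of TGFB3 and BMP2. After dexamethasone TGFB1 and INHBB were the highest and overlapped each other, followed by GDF15 and TGFB2, then BMP4 and BAMBI, which overlapped, then TGFB3, BMP2, FST and INHBA, the last of which shared values of 0 with FST. GDF15 thus moved from the first to the third place and FST to below BMP2.

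The FPKM of the 8 ligand genes summed to 227, 230, 231 and 251 in untreated replicates 1, 3, 4 and 5. With dexamethasone the sums were 79.6, 93.5, 93.3 and 92.1. The lowest untreated sum was above every dexamethasone sum. GDF15 made up 43.3% ± 3.74 of the sum in untreated and 18.4% ± 2.64 in dexamethasone libraries (SD, n = 4 per group). INHBB went from 18.1% ± 4.1 to 32.4% ± 3.85, TGFB1 from 31.5% ± 2.25 to 34.4% ± 3.41 and BMP4 from 2.89% ± 0.853 to 5.09% ± 0.989 (SD, n = 4 per group). The share of INHBB grew although its own FPKM was lower, because the sum was lower still.

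**Figure D2:**
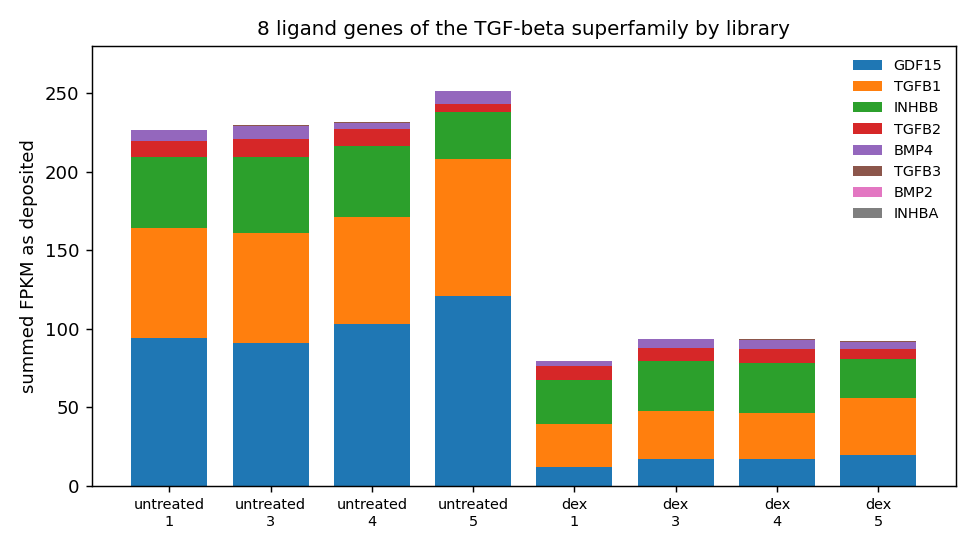
Summed FPKM of the 8 ligand genes in each library, with each gene as a coloured segment of the bar. The bars of the 4 untreated libraries reach 227 to 251 and those of the 4 dexamethasone libraries 79.6 to 93.5, and the GDF15 segment at the base shrinks most.

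The change of the 7 genes past the filter kept its sign in all 17 other settings tried, which include leaving out each library. The genes were chosen with this contrast in view, so the kept sign is no support for a change. In GDF15, TGFB1, FST and BAMBI the groups did not overlap, and leaving out a library could hardly turn the sign. The log2 fold change ranged from -2.69 to -2.33 for GDF15, from -1.35 to -1.02 for TGFB1, from -0.57 to -0.34 for INHBB and from -1.75 to -1.47 for BAMBI. It ranged from -0.45 to -0.07 for TGFB2, from -0.7 to -0.29 for BMP4 and from -3 to -0.86 for FST. Without both libraries numbered 5 the values were -2.52 for GDF15, -1.19 for TGFB1, -0.54 for INHBB, -1 for FST and -1.59 for BAMBI.

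**Figure D3:**
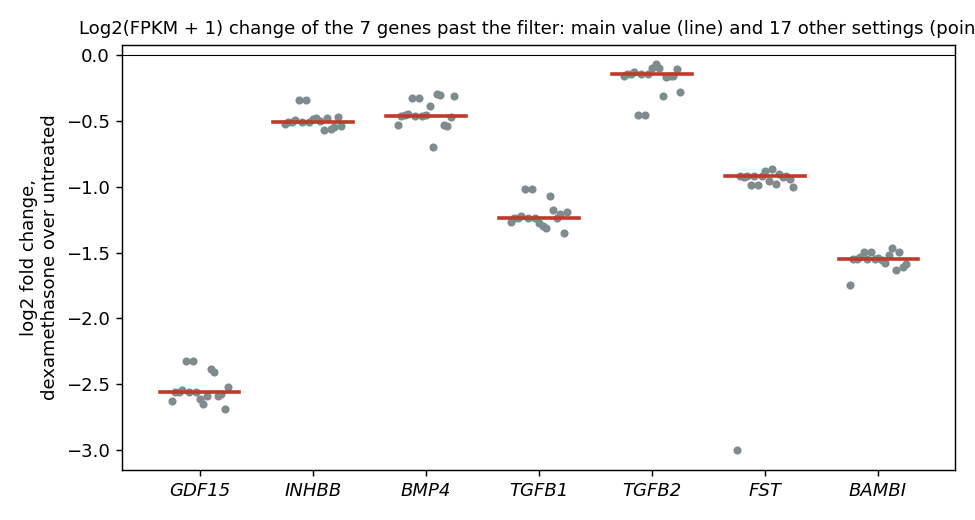
Log2 fold change (dexamethasone over untreated, vertical axis) of the 7 genes past the filter, with the main value as a line and 17 other settings as points. Every point lies below 0, and the lone low point of FST, at -3, is the pseudocount of 0.1.

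The genes whose values over the 8 libraries were most like those of each gene were found by the root mean square difference of centred log2(FPKM + 1), among 12145 other tested genes. For GDF15 these were AMBP (0.143), TESC (0.146) and RAP1GAP (0.161), which encode a plasma protein precursor, a calcium-binding protein and a GTPase-activating protein. AMBP went from a mean of 13.4 to 1.68 FPKM, TESC from 50 to 8.28 FPKM and RAP1GAP from 23.1 to 4.09 FPKM. The nearest gene was CDC42EP1 for TGFB1 (0.0383), GATA6 for INHBB (0.0686), CBX1 for TGFB2 (0.0435) and EXOSC2 for BMP4 (0.14). It was UNC13A for FST (0.0694) and PRRT1B for BAMBI (0.0944). Likeness here is over 2 groups of 4 libraries, so any gene with a similar change lies near.

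Receptors of these ligands were tested as other genes of the pathway. Of 19 receptor and co-receptor genes 11 passed the filter, 3 of them rose, none fell by limma (0 also at an unadjusted p under 0.05), and the median log2 fold change was 0.11. The share called, 27.3%, was close to the 26.7% of all tested genes. The 3 that rose were those of TGF-beta itself: TGFBR1, the type I receptor, TGFBR2, the type II receptor, and TGFBR3, the co-receptor betaglycan. TGFBR1 was 3.62, 8.68, 4.11 and 1.86 FPKM in untreated and 14.4, 10.3, 24.5 and 11.8 FPKM in dexamethasone replicates 1, 3, 4 and 5. All dexamethasone libraries were above all untreated libraries, with a wide spread in both groups, and the log2 fold change was 1.62 (SE 0.33, adjusted p by limma = 0.00564). TGFBR2 was 46.8, 49, 48.5 and 22.9 FPKM in untreated and 76.6, 81.9, 75 and 60.8 FPKM in dexamethasone libraries. Again no values overlapped, and untreated replicate 5 was far below the other untreated libraries (log2 fold change 0.85, SE 0.18, adjusted p by limma = 0.00642). TGFBR3 rose from 4.09 ± 1.52 to 8.87 ± 1.37 FPKM (SD, n = 4 per group), a log2 fold change of 1.02 (SE 0.2, adjusted p by limma = 0.00449). Each of the 3 was called in all 17 other settings.

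Receptor genes of activins and BMPs did not pass the test. The activin type I receptor gene ACVR1B was 9.27 ± 1.27 and 8.44 ± 0.658 FPKM (SD, n = 4 per group; limma adjusted p = 0.554). The type II receptor genes ACVR2A and ACVR2B had log2 fold changes of 0.07 (SE 0.12) and 0.01 (SE 0.17), with limma adjusted p of 0.681 and 0.978. BMPR1A, BMPR1B and BMPR2 were at 0.12 (SE 0.23), 0.11 (SE 0.22) and 0.53 (SE 0.25), with limma adjusted p of 0.71, 0.738 and 0.139. BMPR2 was called as well without both libraries numbered 5, at 0.46, and 4 receptor genes were then higher and none lower.

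SMADs carry the signal to the nucleus. Of 20 SMAD and SMAD regulator genes 19 passed the filter, none rose by limma (2 at an unadjusted p under 0.05) and 4 fell, with a median log2 fold change of 0.05. SMAD3, the mediator of TGF-beta and activin signals, was 136, 141, 130 and 98.8 FPKM in untreated and 42.1, 46.2, 44.1 and 38.5 FPKM in dexamethasone replicates 1, 3, 4 and 5. The groups lay far apart, and SMAD3 fell by 1.54 on the log2 scale (SE 0.11, adjusted p by limma = 1.36e-05). SMAD6, an inhibitor of BMP signals, went from 37 ± 5.49 to 14.4 ± 0.391 FPKM (SD, n = 4 per group), a log2 fold change of -1.3 (SE 0.11, adjusted p by limma = 2.25e-05). PMEPA1, which holds back SMAD2 and SMAD3 and is induced by TGF-beta, went from 54.8 ± 8.24 to 17.5 ± 2.77 FPKM (SD, n = 4 per group), a log2 fold change of -1.59 (SE 0.16, adjusted p by limma = 8.18e-05). The corepressor gene TGIF2, named after its values were seen, fell by 0.83 (SE 0.22, adjusted p by limma = 0.0202), and was not called without untreated replicate 1, dexamethasone replicate 1 or dexamethasone replicate 4 (limma adjusted p up to 0.0649).

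The other SMAD genes did not pass the test. SMAD2 was 15.6, 15.8, 18.7 and 34.1 FPKM in untreated and 9.86, 8.25, 13.9 and 14.2 FPKM in dexamethasone libraries, a log2 fold change of -0.78 (SE 0.33, adjusted p by limma = 0.11). Its groups did not overlap, but untreated replicate 5 was far above the other untreated libraries, and without both libraries numbered 5 it was called (limma adjusted p = 0.0263). The inhibitor gene SMAD7, a direct target of TGF-beta, was 14.1 ± 1.14 and 14.7 ± 0.965 FPKM (SD, n = 4 per group; limma adjusted p = 0.741). SMAD1, SMAD4 and SMAD5 had log2 fold changes of 0.06 (SE 0.21), 0.2 (SE 0.22) and 0.15 (SE 0.31), with limma adjusted p of 0.852, 0.52 and 0.733. The list had 3 genes higher and 6 lower without both libraries numbered 5.

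**Figure D4:**
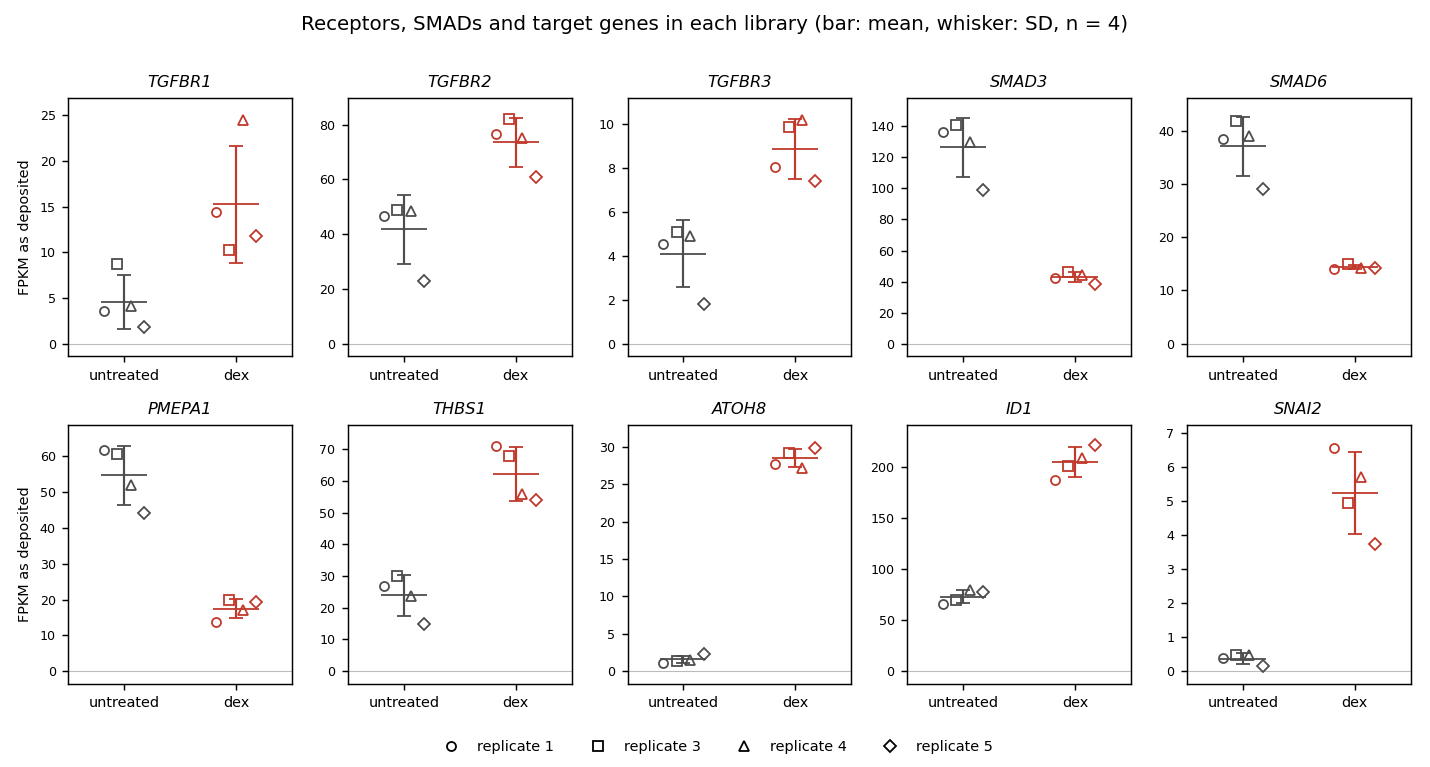
FPKM of 10 receptor, SMAD and target genes in each library, with 1 panel per gene and its own scale. Points are libraries shaped by replicate number, bars are means and whiskers the SD (n = 4). The receptor genes TGFBR1, TGFBR2 and TGFBR3 are higher after dexamethasone, while SMAD3 is at 98.8 to 141 FPKM untreated and 38.5 to 46.2 FPKM with dexamethasone.

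Of 18 genes listed as secreted antagonists beside FST 6 passed the filter, 1 rose and 1 fell (median log2 fold change 0.2). The gene that fell, TGFBR3L, is known as a co-receptor-like protein of the cell surface and not as a secreted antagonist. NBL1, a BMP antagonist, was 16.1, 17.9, 16.5 and 8.44 FPKM in untreated and 28.5, 30, 30.7 and 40.9 FPKM in dexamethasone libraries (log2 fold change 1.13, SE 0.19, adjusted p by limma = 0.00231). The groups did not overlap. NBL1 overlaps, on the same strand, the readthrough gene MICOS10-NBL1, so its value may include fragments of both. TGFBR3L went from 0.635 ± 0.1 to 0.277 ± 0.0551 FPKM (SD, n = 4 per group), a log2 fold change of -0.36 (SE 0.07, adjusted p by limma = 0.00615). That call was lost with the trend on GC content removed, where the value was -0.05. FSTL3, the follistatin relative that also binds activins, ranged from 15.1 to 59 FPKM in untreated and from 19.3 to 92.7 FPKM in dexamethasone libraries, with a log2 fold change of 0.99 (SE 0.62, adjusted p by limma = 0.262). Without both libraries numbered 5, 7 antagonist genes were tested, and 2 were higher and 2 lower.

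Latent TGF-beta is held in the matrix and released by integrins, proteases and thrombospondin. Of 20 genes listed for latency and activation 18 were found by symbol and 13 passed the filter. Of these 5 rose and 2 fell, and the median log2 fold change was 0.42. THBS1, the activator thrombospondin 1, was 26.9, 29.9, 23.7 and 15 FPKM in untreated and 71.1, 67.8, 56 and 53.9 FPKM in dexamethasone replicates 1, 3, 4 and 5. No untreated library reached the dexamethasone range, and the log2 fold change was 1.38 (SE 0.16, adjusted p by limma = 0.000208). ITGB8, the beta subunit of an integrin that activates TGF-beta, rose from 0.506 ± 0.179 to 2.1 ± 0.577 FPKM (SD, n = 4 per group; log2 fold change 1.04, SE 0.13, adjusted p by limma = 0.000396). LTBP4, which encodes a latent TGF-beta binding protein, fell from 10.6 ± 1 to 4.4 ± 0.111 FPKM (SD, n = 4 per group; log2 fold change -1.1, SE 0.14, adjusted p by limma = 0.00033). Named after their values were seen, the protease gene BMP1 and the convertase genes PCSK5 and PCSK6 rose by 0.82 (SE 0.16), 0.58 (SE 0.13) and 0.49 (SE 0.13), with limma adjusted p of 0.00428, 0.00873 and 0.0225. LTBP3, named on the same grounds, fell by 0.51 (SE 0.16, adjusted p by limma = 0.0422). LTBP3 lost the call in 8 of 17 other settings, among them leaving out untreated replicate 1, 3 or 5 or dexamethasone replicate 1, 3 or 4 (limma adjusted p of 0.0559 to 0.121), and PCSK6 lost it without untreated replicate 1, 3 or 4 or dexamethasone replicate 3 (limma adjusted p up to 0.0722). FURIN, the main convertase of these precursors, was 20.2 ± 2.14 and 21.1 ± 1.84 FPKM (SD, n = 4 per group; limma adjusted p = 0.815).

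**Figure D5:**
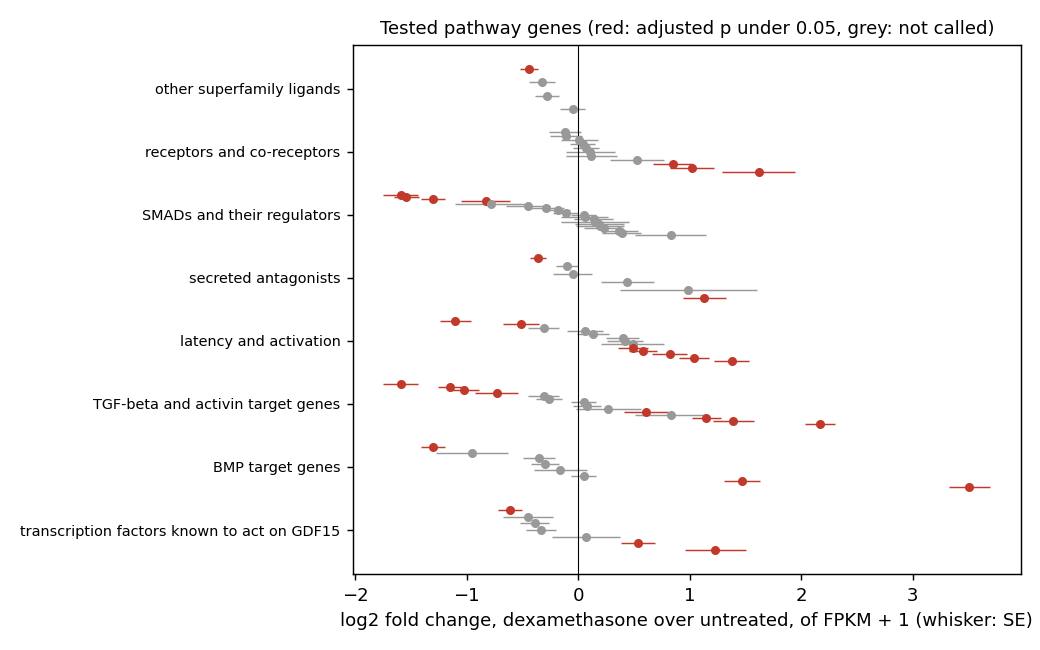
Log2 fold change (dexamethasone over untreated, horizontal axis) of the tested genes in 8 lists of the pathway, with 1 point per gene and the SE as whisker. Red points have an adjusted p under 0.05; the receptor list has red points only on the higher side (3 genes) and the SMAD list only on the lower side (4 genes).

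Genes known to be induced by TGF-beta or activin moved both ways. Of 16 listed 14 were found by symbol, and all 14 passed the filter. Of these 4 rose and 4 fell, with a median log2 fold change of 0.06. SNAI2, an epithelial-mesenchymal transition factor, was 0.394, 0.461, 0.48 and 0.155 FPKM in untreated and 6.56, 4.93, 5.69 and 3.72 FPKM in dexamethasone libraries. It was low in every untreated library, and its log2 fold change was 2.17 (SE 0.14, adjusted p by limma = 6.5e-06). COL1A1, a collagen gene, went from 2.03 ± 0.188 to 0.367 ± 0.0765 FPKM (SD, n = 4 per group; log2 fold change -1.15, SE 0.11, adjusted p by limma = 5.34e-05), and PMEPA1, also in this list, fell as given above. Named after its values were seen, FN1 (fibronectin) went from 65.3 ± 18.1 to 170 ± 33.1 FPKM (SD, n = 4 per group). The log2 fold change of FN1 was 1.39 (SE 0.18, adjusted p by limma = 0.000506). The metalloprotease gene ADAM19 fell by 1.02 (SE 0.13, adjusted p by limma = 0.000448), and TGFBI, an abundant matrix gene named for the same reason, went from 289 ± 50.3 to 173 ± 12.8 FPKM (SD, n = 4 per group; limma adjusted p = 0.0203). TGFBI was not called without untreated replicate 1, dexamethasone replicate 1 or dexamethasone replicate 4 (limma adjusted p of 0.0636 to 0.0657). JUNB, a growth-factor response gene also named after its values were seen, rose by 0.61 (SE 0.2, adjusted p by limma = 0.046) but lost the call without untreated replicate 1, 3 or 4 or any dexamethasone replicate (limma adjusted p up to 0.107).

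Markers of fibroblasts, which make much of this matrix, were examined beside these genes. The 6 fibroblast markers summed to 1.67 to 2.07 FPKM in untreated and 0.443 to 0.536 FPKM in dexamethasone libraries. Of the 6, COL1A2 and POSTN were listed at 0 throughout, and THY1, the only marker tested, went from 1.72 ± 0.162 to 0.383 ± 0.0217 FPKM (SD, n = 4 per group; limma adjusted p = 9.72e-05). The 5 leukocyte markers summed to 6.14 to 7.88 and 3.26 to 4 FPKM, nearly all from CD68 and CD14, and the 5 endothelial markers to at most 0.186 FPKM. Their part in the results was not tested. In bulk RNA fewer cells with a transcript and less of it per cell cannot be told apart.

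Of 11 BMP target genes 8 passed the filter, 2 rose and 1 fell, with a median log2 fold change of -0.23. ATOH8, a helix-loop-helix transcription factor, was 1.15, 1.42, 1.55 and 2.29 FPKM in untreated and 27.7, 29.2, 27.2 and 29.9 FPKM in dexamethasone replicates 1, 3, 4 and 5. Its libraries formed compact, distant groups (log2 fold change 3.51, SE 0.19, adjusted p by limma = 2.07e-06). ID1, an inhibitor of differentiation and the classic BMP target, was 65.6, 70.1, 79.6 and 77.4 FPKM in untreated and 187, 201, 209 and 222 FPKM in dexamethasone libraries (log2 fold change 1.47, SE 0.17, adjusted p by limma = 0.000185). SMAD6 was the target that fell. ID2 and ID3 had log2 fold changes of -0.95 (SE 0.33) and -0.16 (SE 0.24) and did not pass the test (limma adjusted p of 0.057 and 0.646), although ID2 passed without untreated replicate 5, at -1.21 (limma adjusted p = 0.00869). Without both libraries numbered 5, 3 genes of the list were lower.

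Transcription factors known to act on GDF15 were examined because GDF15 had the largest difference in FPKM among the 10 genes. Of 8 listed 7 passed the filter, 2 rose and 1 fell, with a median log2 fold change of -0.33. ATF3, a stress-response factor, fell from 1.56 ± 0.385 to 0.666 ± 0.126 FPKM (SD, n = 4 per group; log2 fold change -0.61, SE 0.11, adjusted p by limma = 0.00263). HIF1A, the hypoxia factor, rose from 42.9 ± 19.6 to 93.4 ± 14 FPKM (SD, n = 4 per group; log2 fold change 1.23, SE 0.28, adjusted p by limma = 0.00922). KLF4 rose by a log2 fold change of 0.54 (SE 0.15, adjusted p by limma = 0.0256), and lost the call with no scaling and without untreated replicate 1 or dexamethasone replicate 1, 3 or 4 (limma adjusted p up to 0.0821). ATF4, the main factor of the integrated stress response, was 84.6, 77.9, 83.1 and 75.5 FPKM in untreated and 64.3, 57.5, 59.4 and 63.7 FPKM in dexamethasone libraries. All its dexamethasone values were lower, but the test was just missed (log2 fold change -0.39, SE 0.13, adjusted p by limma = 0.0533), and 8 of 17 other settings called it, with dexamethasone replicate 5 left out among them (limma adjusted p = 0.0411). The ATF4 partner gene DDIT3 was at -0.33 (SE 0.13, adjusted p by limma = 0.097).

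Most other ligands of the superfamily were below the filter. Of 25 listed 4 passed it, none rose by limma (0 also at an unadjusted p under 0.05) and 1 fell, with a median log2 fold change of -0.3. BMP8B, the highest of the list and named after its values were seen, was 3.32 ± 0.384 and 3.17 ± 0.26 FPKM (SD, n = 4 per group; limma adjusted p = 0.782). BMP6 went from 0.838 ± 0.147 to 0.357 ± 0.0952 FPKM (SD, n = 4 per group; log2 fold change -0.44, SE 0.08, adjusted p by limma = 0.00343), and the call was lost with the trend on GC content removed. GDF11 and AMH had log2 fold changes of -0.32 (SE 0.12) and -0.28 (SE 0.11) and did not pass (limma adjusted p of 0.0666 and 0.0812). Without both libraries numbered 5, 2 of the 4 were lower. In all 8 lists together 126 of 130 genes were in the files, 76 passed the filter, 17 rose and 12 fell, which is 22.4% and 15.8% of those tested, beside 12.5% and 14.3% of all tested genes. Taken by list, 27.3% of the tested receptor genes were called, 21.1% of the SMAD genes, 33.3% of the antagonist list, 53.8% of the latency and activation genes, 57.1% of the TGF-beta and activin targets, 37.5% of the BMP targets, 42.9% of the factors acting on GDF15 and 25% of the other ligands. The lists were chosen with earlier results of these data known, so nothing is read from these shares.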

How the data were processed

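RNA from 8 A549 wells, 4 untreated and 4 treated with dexamethasone, was depleted of ribosomal RNA and sequenced, per the labels' protocols. The submitters' processing notes name FastQC 0.11.9, cutadapt 3.4, STAR 2.7.9a, featureCounts of Subread 2.0.3, DESeq2 1.32.0 and GRCh38; which annotation was used, and whether strand was, is not given in the sources used here. The deposited values of the authors are not whole numbers and were read as FPKM from their values, since no label or header names the unit. The spacing of low values gave an estimate of depth, but only 33.3% to 42.5% of them lay within 0.1 of a whole fragment, so read counts could not be restored and count models were not used.

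Here scaling between libraries used trimmed means of M values (trimming 0.3 of M and 0.05 of A values), and log2(FPKM + 1) of the 12152 genes with at least 0.5 FPKM in at least 4 libraries was compared between groups by limma 3.58.1 under R 4.3.3 (trend and robust, group as the only term, two-sided, Benjamini-Hochberg adjusted p under 0.05). On simulated data of 4 libraries against 4 this recovered 39.5% of 200 genes changed 2-fold (11979 genes, 0 false calls), 84% of 200 changed 4-fold (11979 genes, 6 false calls) and 0% of 200 changed 1.5-fold (11981 genes), and made 0 calls in 11984 genes with no change. The simulation changed 200 genes and drew the spread of each gene independently, while limma called 3250 genes in the data. These shares therefore do not give the recovery or the false calls in the data.

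The 10 genes and the 8 pathway lists were chosen with earlier results of these data known. Besides the 10 genes, the rule named the 3 tested genes of each list with the smallest p, receptors, SMADs and antagonists of the 10 genes, 3 nearest profiles for GDF15 and 1 for each other tested gene; others are marked in the text as named after their values were seen. Alternatives were another pseudocount (0.1), no filter, no scaling or median-of-ratios scaling, removal of the trend on GC content (GENCODE v44, 19065 genes matched), a replicate block, limma without trend and robust, each library left out, and both libraries numbered 5 left out. No 2 libraries held identical values. Some genes of the lists are not reported here.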

Additional observations from a re-analysis of the deposited data

Results flagged for a closer look

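In 124 groups of 4 values, 1 library lay far from the other 3 in 10 (its gap to the nearest library, divided by the whole range, was above Dixon's critical value for 4 samples); chance gives about 6, which is 1 in 20 of the groups. Of the 10, 7 were untreated replicate 5 and 1 dexamethasone replicate 5.

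Untreated replicate 5 was below the other untreated libraries for INHBB, at 30 FPKM against 45 to 47.8, and above them for TGFB1, at 87 FPKM against 68 to 70.5. It was also below them for the receptor genes TGFBR2, at 22.9 FPKM against 46.8 to 49, TGFBR3, at 1.83 FPKM against 4.54 to 5.08, and ACVR2B, at 0.509 FPKM against 1.42 to 1.51. For SMAD2 it was above them, at 34.1 FPKM against 15.6 to 18.7, and likewise for the BMP target gene ID3, at 89.9 FPKM against 59.8 to 63.4. In the dexamethasone group replicate 5 stood apart for the BMP modulator gene TWSG1, at 4.95 FPKM against 8.19 to 8.75.

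The latent TGF-beta binding protein genes gave the remaining cases. LTBP4 was 4.23 FPKM in dexamethasone replicate 1 against 4.45 to 4.46 in the others, a narrow range. LTBP3 was 26.9 FPKM in untreated replicate 4 against 30.9 to 31.1.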

How the results depend on the processing

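Over the 17 settings no named gene that was called with all libraries changed direction, while 11 named genes that were not called changed sign in at least 1 (ACVR1B, ACVR2A, ACVR2B, AMH, BMPR1A, BMPR1B, FURIN, ID3, SMAD1, SMAD4 and SMAD5). The 3250 calls became 5512 without both libraries numbered 5, 5747 with a replicate block and 5281 with a replicate block and the GC trend removed. The 12 pathway genes called lower became 19 without the filter, 22 with a replicate block and 21 without both libraries numbered 5; the cause was not tested, except that no filter adds genes to the test. With 1 library left out the calls ranged from 2318 to 3836, the pathway genes higher from 14 to 18 and lower from 9 to 16. Among single-gene values of the named pathway genes 765 kept their side of the threshold, 34 lost and 34 gained a call. For the 7 of the 10 genes that passed the filter, whose values carry no test, 113 values stayed within the spread and 6 moved. INHBB was called in 16, TGFB2 in 4 and BMP4 in 1 of 17 settings. Same-numbered libraries deviated together with correlations of 0.292, 0.066, 0.314 and 0.714, of which 1 is not over 0.1. Dexamethasone replicates 3, 4 and 5 correlated best with their own number, but dexamethasone replicate 1 did so with untreated replicate 3, and untreated replicates 3 and 4 with dexamethasone replicate 1, so the numbers were not taken as pairs. With a replicate block 8 named genes gained a call and 0 lost one: GDF11, AMH, TWSG1, BMPR2, SMAD2, SKIL, ATF4 and DDIT3 (limma adjusted p of 0.000741 to 0.0487). Values below 0.5 FPKM rest on few fragments. Changes of 1.5-fold were not recovered in simulated data, which held far fewer changed genes than were called in the data. In the data some smaller changes were called, such as that of PCSK6, 1.46-fold by mean FPKM.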

Other observations

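Below the filter, 38 further pathway genes had values above 0. Tested without the filter, 3 of them rose and 7 fell by limma at a Benjamini-Hochberg adjusted p under 0.05. Those named here were chosen after their values were seen. Those that rose were the inhibin subunit gene INHA, the BMP-like ligand gene GDF7, from 0.0283 ± 0.00688 to 0.167 ± 0.056 FPKM (SD, n = 4 per group; limma adjusted p = 0.00504), and DCN, the TGF-beta-binding proteoglycan decorin. DCN, at 0 in every untreated library, was 0.286 ± 0.0768 FPKM (SD, n = 4) after dexamethasone (limma adjusted p = 0.00103). Those that fell included the activin subunit gene INHBE, from 0.125 ± 0.0413 to 0.00722 ± 0.0144 FPKM (SD, n = 4 per group; limma adjusted p = 0.00284), and the ligand gene BMP7, from 0.286 ± 0.0431 to 0.0261 ± 0.0248 FPKM (SD, n = 4 per group; limma adjusted p = 0.000139). The BMP antagonist gene GREM1 went from 0.628 ± 0.256 to 0.119 ± 0.0134 FPKM (SD, n = 4 per group; limma adjusted p = 0.00444), and the receptor gene AMHR2 from 0.459 ± 0.169 to 0.0116 ± 0.0232 FPKM (SD, n = 4 per group; limma adjusted p = 0.00328). LEFTY1 and CHRDL2 also fell, each with a mean of at most 0.15 FPKM in untreated cells.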
